A study of Homo sapiens with 4 samples.

Results

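ATRX, MATR3, MAZ, KHDC4 (listed under its older symbol KIAA0907) and SMAD2 are nuclear genes of nuclear regulators whose transcripts were listed as bound by GTPBP8 and by AUH in each fPAR-CLIP library of the series. They were chosen by the presence of sites: each of the 4 site lists holds at least 1 site annotated to every one of them, so that having a site is no result. In all, 13 nuclear genes met this condition, these 5 regulators and 8 others. The 5 genes hold 24 of the 2341 sites in all lists and are 5 of 1227 gene names. They had 6, 7 and 5 sites in GTPBP8 replicates 1, 2 and 3 and 6 sites in the AUH library. ATRX, SMAD2 and KHDC4 each rest on a single AUH site of 5 reads, and the smallest site in that list has 4 reads. Just outside the choice lie 37 nuclear genes with a site in every GTPBP8 replicate and none for AUH, and 11 with a site for AUH and in 2 of the 3 GTPBP8 replicates.

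GTPBP8, a mitochondrial GTP-binding protein, was expressed with a FLAG tag in HEK293 T-REx cells, an embryonic kidney line with a doxycycline-controlled transgene, and 3 biological replicates were sequenced. AUH, a mitochondrial enoyl-CoA hydratase that binds RNA, was expressed with a V5 tag in the same system, and 1 library was sequenced. In both lines doxycycline was given at 50 ng/ml for 48 h, 4-thiouridine (4SU) at 100 µM for 16 h, and 312 nm light for 5 min. No library from cells without a tagged protein is analysed here, and by the study's methods the stable lines were grown from selected single colonies, so that the 2 proteins also differ by line, tag and antibody. The lists hold bound sites only, which do not let the cell line be checked against its markers.

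In fPAR-CLIP, light links 4SU in an RNA to a protein that touches it, and the linked base is read as C where the RNA had U. ATRX is a chromatin remodeller that works with DAXX to deposit a variant of histone H3 at heterochromatin and telomeres. MATR3 is an RNA-binding protein of the nuclear matrix. MAZ is a zinc finger transcription factor of GC-rich promoters, KHDC4 is a KH-domain RNA-binding protein linked to splicing, and SMAD2 carries TGF-beta and activin signals from the receptor to the nucleus.

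The sites that carry the comparison are shown first, because in ATRX, SMAD2, KHDC4 and MAZ they let the reader see that the proteins were listed on different sequences. They are written 5′ to 3′ along the RNA, in DNA letters, with each T (U in the RNA) in capitals. They are as the lists give them, cut to their last 30 nt where the site is longer. The AUH list gives its MAZ site, labelled 3′ UTR here, as coding and stop codon too.
ATRX intron, GTPBP8 replicates 1 to 3: TcagaggTTcaTTccTTTTca
ATRX intron, AUH: gTaTTTaggTaTcTTTTcTacTccaTaT
SMAD2 intron, GTPBP8 replicates 1 to 3: cTTaaTcTcTTaTTTcTacca
SMAD2 coding, AUH: aaTgggcaggaagaaaagTggTg
KHDC4 intron, end of SCARNA4, GTPBP8 replicates 2 and 3: TcacagggcTgacTgTacTacccaacacTc
KHDC4 3′ UTR, AUH: aaaTacagTggTcTcTcTcTcccag
MAZ stop codon, GTPBP8 replicates 2 and 3: acTTcccTcccaacccTggTgagcTccaag
MAZ 3′ UTR, GTPBP8 replicate 1: TcTTTTcaTcccTcTTccccacg
MAZ 3′ UTR, AUH: gcgcggaccccaTTacaaTaaaTTTTaaaT
MATR3 coding, GTPBP8 replicate 2: caccTcccTcaTTTcaTcTTgggggaccag

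Depth differed widely between the proteins. The GTPBP8 lists hold 402701, 627603 and 403172 site reads and the AUH list 9684. Nuclear sites took 6.63%, 5.21% and 7.72% of these reads for GTPBP8 and 80.5% for AUH. At the 5 genes this left 121, 229 and 149 reads against 34, so that every AUH value below rests on few reads and on 1 library without replicates.

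None of the 5 genes had a GTPBP8 site that overlapped an AUH site. The count was 0 of 6, 0 of 7 and 0 of 5 sites in replicates 1, 2 and 3, where 3.12%, 2.3% and 3.52% of all nuclear GTPBP8 sites shared 1 nt or more with an AUH site on the same strand. With so low a background, 0 overlaps in so few sites are what the lists give in general. Of the 8 other nuclear genes with a site in every library, 1 had such an overlap. The shortest gap lay in MAZ, where AUH was listed 77 nt downstream of the 3′ UTR site of GTPBP8 replicate 1. The gaps were 256248 nt in ATRX, 39384 nt in SMAD2 and 12579 to 12583 nt in KHDC4.

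Among the GTPBP8 replicates, ATRX, SMAD2 and KHDC4 were listed at the same place in all 3, and MAZ and MATR3 were not. In each replicate 3 of the sites of the 5 genes (of 6, 7 and 5) overlapped a site of both other replicates, where 15.1%, 9.06% and 15.8% of all nuclear sites did. The genes were chosen for a site in each replicate, which favours such overlaps, and 2 of the 8 other nuclear genes with a site in every library had one. Replicate 1 decides the count: without it, all 5 genes had a site at the same place in the remaining replicates. All 24 sites lie inside the interval that RefSeq gives for their gene on GRCh38.p14, the build used for every position here.

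**Figure D1:**
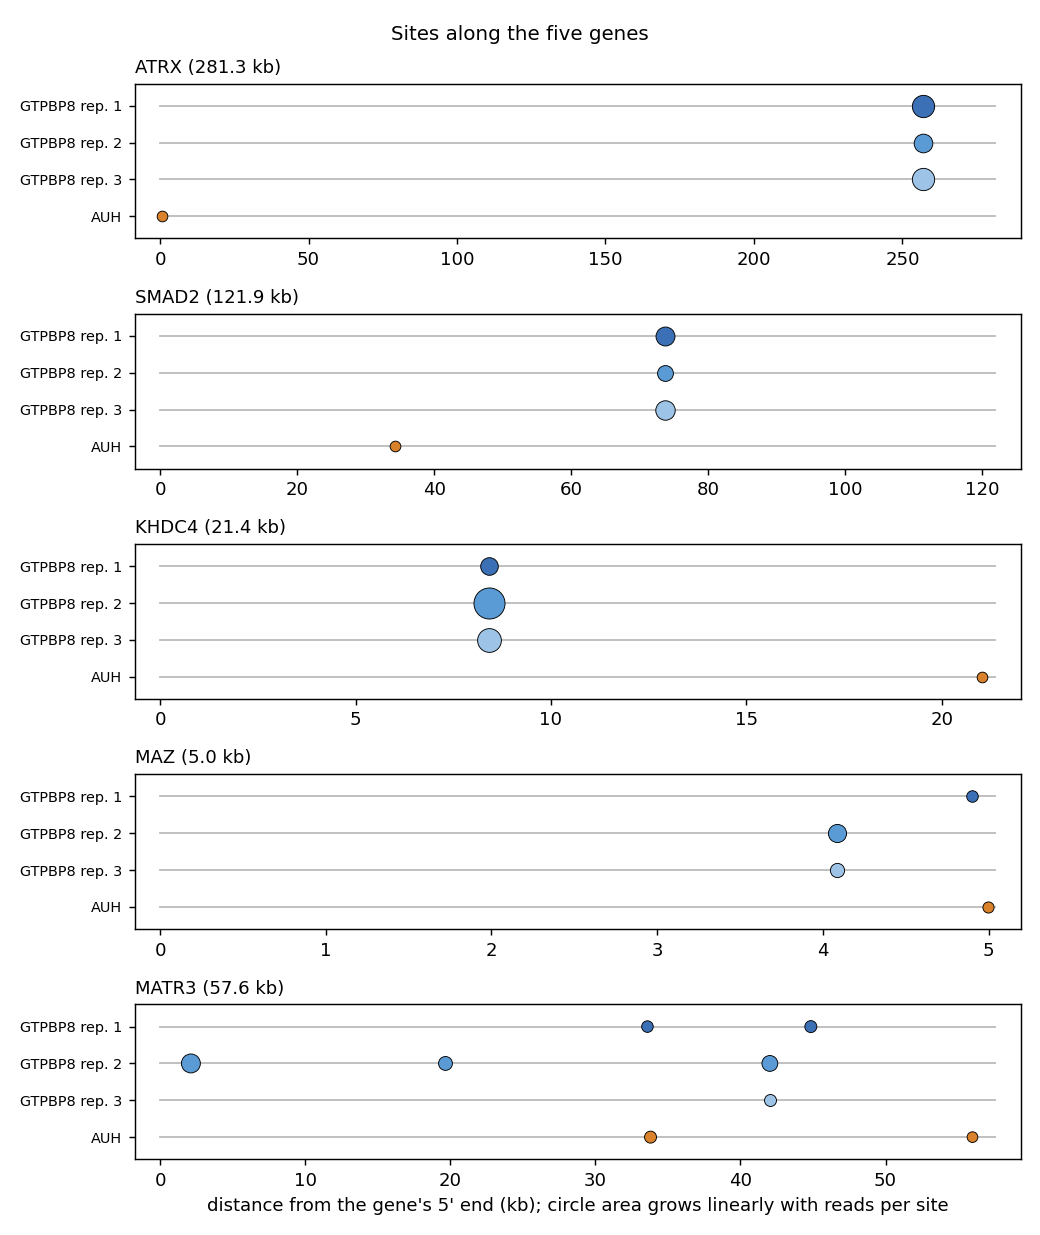
Position of every site along the 5 genes, as the distance in kb from the 5′ end of the gene (x axis) in each of the 4 libraries (rows), with circle areas that grow linearly with the reads at the site. GTPBP8 circles stack in ATRX, SMAD2 and KHDC4 and are spread in MAZ and MATR3, and no AUH circle (orange) stands at the position of a GTPBP8 site, the nearest being 77 nt away in MAZ.

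The ATRX site of GTPBP8 was at chrX:77529119-77529139 on the minus strand, within an intron, with the same first and last base in the 3 replicates. It is 257077 nt from the start of a gene of 281337 nt. It had 44, 29 and 44 reads, made of 38, 25 and 35 distinct read sequences. Replicates 1 and 3 had the same number of reads, and replicate 2, the library with most reads, had the fewest. A T-to-C conversion was carried by 44, 29 and 39 of these reads (100%, 100% and 88.6%). No read ended in G, the base after which RNase T1, the nuclease of the protocol, cuts. Sites without a read ending in G made up 54.4%, 56.4% and 52.8% of the nuclear sites, so this is common in these lists.

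The SMAD2 site of GTPBP8 was at chr18:47857230-47857250 on the minus strand, again in an intron and with identical ends in the 3 replicates. It had 30, 19 and 32 reads from 22, 15 and 21 distinct sequences. As in ATRX, the fewest reads were in replicate 2. All of the reads carried a conversion and none ended in G. The site has no G in its sequence, and with 10 T in 21 nt (47.6%) it is one of the U-rich sites of the lists: 5.76%, 4.6% and 4.27% of nuclear sites had more.

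What ATRX and SMAD2 sites shared beyond the rule was their read make-up. The lists split the reads of a GTPBP8 site into those without a mismatch, with 1 T-to-C change and with 1 other mismatch, as far as the column names tell, and the remaining reads fall in none of these classes. In ATRX 37, 18 and 39 reads fell outside them (84.1%, 62.1% and 88.6%), and in SMAD2 29, 19 and 31 (96.7%, 100% and 96.9%). Over all nuclear sites, 18.5%, 15.7% and 17.1% had more than 50% of their reads outside the classes, and among intron sites 50%, 37.6% and 36% did. Neither site held a read without a mismatch in any replicate, which 47.5%, 53.2% and 48.5% of nuclear sites also lacked. Conversion events numbered 31, 21 and 38 at the SMAD2 site, 1.03, 1.11 and 1.19 per read, although only 1, 0 and 1 reads were in the class with a single T-to-C change.

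Sites with identical ends in the 3 replicates were few. There were 29 on the nuclear chromosomes, of which 2 belong to the 5 genes, those of ATRX and SMAD2. Of the 29, 13 were 21 nt long, 6 lay in introns and 15 had no gene, 21 had no mismatch-free read in any replicate and 18 had most reads outside the classes in every replicate. The sites of ATRX and SMAD2 are part of each of these counts but that of sites without a gene. How many sites share all of these traits was not counted. Compared with the site sequences on the mitochondrial chromosome, the SMAD2 sequence was 4 edits and the ATRX sequence 6 edits from the nearest, where the 85 distinct nuclear site sequences of 21 nt had a median of 6 and 15 of them were at 4 or fewer. No other nuclear site in the lists lay within 2 edits of either.

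**Figure D2:**
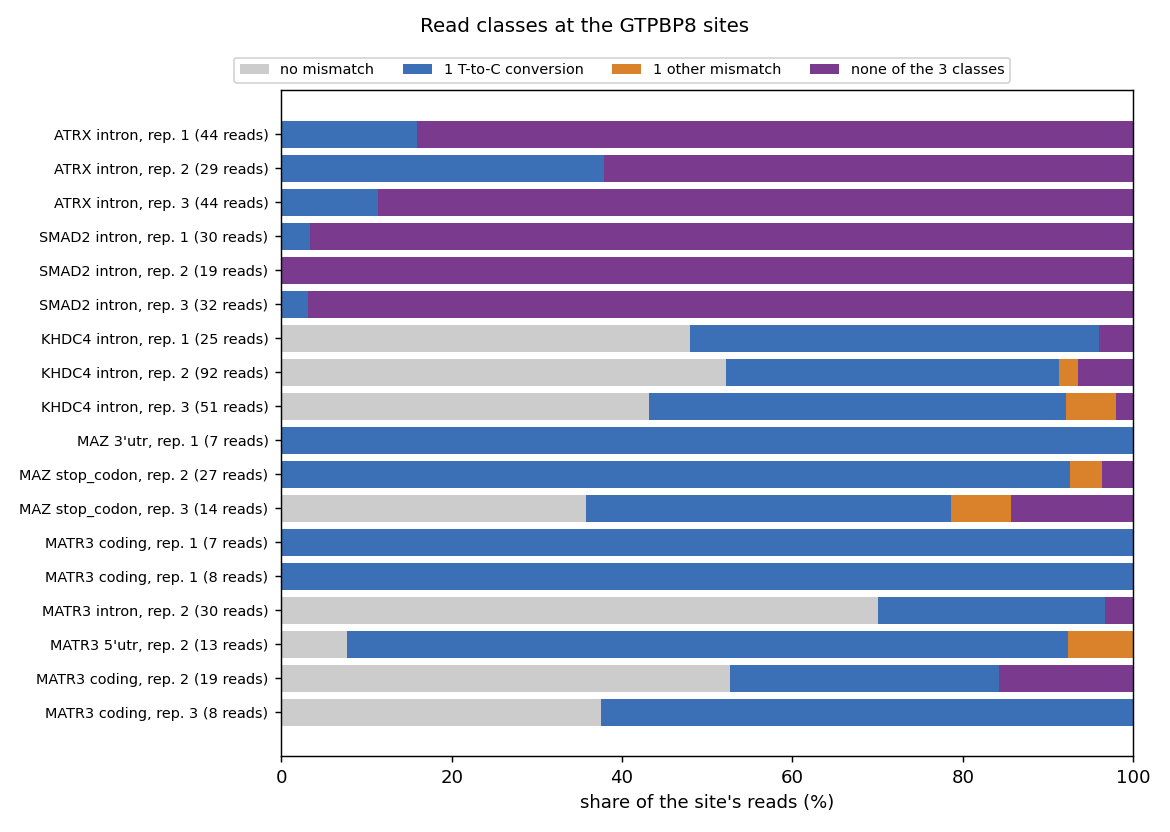
Share of the reads (x axis, %) at each GTPBP8 site of the 5 genes (rows, with gene, annotation, replicate and reads) that had no mismatch (grey), 1 T-to-C conversion (blue), 1 other mismatch (orange) or none of these classes (purple). Purple fills 62.1% to 100% of the ATRX and SMAD2 bars, and grey is absent from them and takes 43.1% to 52.2% of the KHDC4 bars.

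AUH was listed elsewhere in both genes. Its ATRX site, chrX:77785388-77785415, lies 801 nt from the start of the gene in an intron, with 5 reads, 4 of them converted, and a U content of 50%. Its SMAD2 site, chr18:47896635-47896657, is coding sequence with 5 reads, all converted. The SMAD2 pair differs in base composition, since the AUH site has 13% U and 43.5% G where the GTPBP8 site has 47.6% U and no G.

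In KHDC4 the GTPBP8 sites lie within an intron that hosts SCARNA4, a small Cajal body RNA of the H/ACA class, whose members guide pseudouridylation of spliceosomal RNAs. Replicate 1 had a site of 45 nt at chr1:155925962-155926006, replicate 2 one of 51 nt at chr1:155925958-155926008, and replicate 3 one of 32 nt at chr1:155925958-155925989. In replicates 2 and 3 the site ends at the last base of the 129 nt SCARNA4 (chr1:155925958-155926086, minus strand) and in replicate 1 it ends 4 nt before it. The sites cover 34.9%, 39.5% and 24.8% of that RNA. The sequence shown above ends in ACA followed by 3 more bases, the place of the ACA box that gives the class its name. The letters ACA at that distance from the end were found in 1.68%, 2.01% and 3.27% of nuclear GTPBP8 sites, a match of letters only.

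The SCARNA4 reads had another make-up than those of ATRX and SMAD2. There were 25, 92 and 51 reads, of which 12, 36 and 25 were converted (48%, 39.1% and 49%). Reads without a mismatch numbered 12, 48 and 22, and 1, 6 and 1 lay outside the classes. Replicate 2 held most reads on every count. Over the 3 replicates the converted share was 45.4% ± 5.44 (SD, n = 3) in KHDC4 and 97.8% ± 3.80 (SD, n = 3) for ATRX and SMAD2 summed, with 65% ± 1.32 (SD, n = 3) over all nuclear sites. These sites were set against each other after their values had been seen, and no test is given. A read in this interval counts for KHDC4 in the lists although it may come from the small RNA or the host transcript, which the lists cannot tell apart.

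The AUH site of KHDC4, chr1:155913354-155913378, is in the 3′ UTR, 309 nt from the end of the gene. It had 5 reads, all converted, and a U content of 28%, above the 20%, 19.6% and 21.9% of the GTPBP8 sites.

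MAZ had GTPBP8 sites at the end of its coding region. Replicates 2 and 3 shared the interval chr16:29810208-29810239, annotated to the stop codon, with 27 and 14 reads, of which 25 and 8 were converted (92.6% and 57.1%). Replicate 1 had its site in the 3′ UTR, chr16:29811023-29811045, with 7 reads, all converted. At least 92.6% of reads ended in G at each of these sites, unlike the ATRX, SMAD2 and KHDC4 sites, where none did. Both MAZ sequences also end in G, as 54.9%, 56.3% and 55.8% of nuclear sites did, and those of ATRX, SMAD2 and KHDC4 do not. Among nuclear sites that end in G, the median share of reads ending in G was 76.5%, 56.25% and 50% in replicates 1, 2 and 3. Among the other nuclear sites it was 0%.

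For AUH the MAZ site was chr16:29811123-29811155, which the list gives as 3′ UTR, coding and stop codon at once. It had 6 reads, 3 of them converted. It ends 9 nt before the end of the gene and holds AATAAA, the letters of the polyadenylation signal, on the strand of the gene. These letters occurred in 1.19% of nuclear AUH sites (8 of 674) and in 2.64%, 2.59% and 3.27% of nuclear GTPBP8 sites. The MAZ sites of AUH and of GTPBP8 also lie inside the RefSeq interval of MVP-DT, looked up without regard to strand.

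MATR3 had the most scattered sites. Replicate 1 had coding sites at chr5:139307694-139307720 with 7 reads and at chr5:139318954-139318974 with 8 reads, all converted. Converted reads are the listed fraction times the reads, and the list gives only 5 conversion events for these 8 reads. Replicate 2 had a coding site at chr5:139316130-139316164 with 19 reads, 8 of them converted. Replicate 3 shared it but for 1 nt, with 8 reads, 5 converted reads and 4 conversion events. Replicate 2 added a 5′ UTR site at chr5:139293774-139293799 with 13 reads, 11 of them converted. Its largest site, chr5:139276226-139276289, had 30 reads, 8 of them converted, and is annotated as intron.

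That intron site lies wholly within SNORA74D, an H/ACA small nucleolar RNA of 144 nt (chr5:139276180-139276323), and covers 44.4% of it. Of its reads 21 had no mismatch and 26.7% were converted, the lowest converted share among the sites of the 5 genes. Small RNAs within introns were thus the place of GTPBP8 sites in KHDC4 in 3 of 3 replicates and in MATR3 in 1 of 3. Of the 18 GTPBP8 sites, 4 were of this kind, and 3 of the 4 are the SCARNA4 place seen in 3 libraries. Over all nuclear sites, 5.28%, 5.04% and 8.54% lay wholly within a small nucleolar or Cajal body RNA of RefSeq in replicates 1, 2 and 3. As in KHDC4, the lists cannot tell the small RNA from its host transcript. The SNORA74D site also lies inside the RefSeq intervals of SNHG4 and LOC124901081, looked up without regard to strand. Its reads therefore need not come from MATR3 transcripts.

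Among the AUH sites of MATR3, that in the 3′ UTR was at chr5:139330096-139330124, with 5 reads, all converted. The U content there was 37.9%.

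Reads per gene were set against the total of site reads, as counts per 1000000 site reads (CPM). For ATRX this gave 109, 46.2 and 109 CPM in the GTPBP8 replicates, in their order, and 516 CPM for AUH. SMAD2 had 74.5, 30.3 and 79.4 CPM against 516. KHDC4 had 62.1, 147 and 127 CPM against 516. For these genes the AUH value is 5 reads, and GTPBP8 replicate 2 is lowest in ATRX and SMAD2 and highest in KHDC4.

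MAZ had 17.4, 43 and 34.7 CPM for GTPBP8 and 620 for AUH. MATR3 had 37.3, 98.8 and 19.8 CPM against 1342, and replicate 2 had 51 CPM without its SNORA74D site. On this scale the AUH library was above every GTPBP8 replicate in each gene, which the choice of genes fixed for GTPBP8 values this low. The smallest AUH site stands at 413 CPM, above the highest GTPBP8 value of the 5 genes, 147 CPM. The smallest GTPBP8 sites stand at 12.4, 7.97 and 12.4 CPM. The gene at the top for GTPBP8 was KHDC4 with 112 ± 44.2 CPM (SD, n = 3), followed by ATRX with 88.2 ± 36.4, SMAD2 with 61.4 ± 27, MATR3 with 52 ± 41.5 and MAZ with 31.7 ± 13.1. Neighbours in this order differ by less than the larger of their SDs.

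Genes listed in each of the 4 libraries (21, of which 8 are mitochondrial transcripts) entered edgeR's quasi-likelihood test. With all site reads as library size, 4 of the 5 genes were called lower for GTPBP8 and 0 higher, and over the 21 genes 13 were lower (61.9%), 11 of the 13 nuclear ones (84.6%), and 2 higher (9.52%). These calls carry no evidence about the 5 genes, since a site in the AUH list was the condition for entry, and the values are a description. The log2 difference (GTPBP8 minus AUH) was −4.65 ± 0.95 (SE) for MATR3, −4.25 ± 1.05 for MAZ, −3.08 ± 1.14 for SMAD2, −2.56 ± 1.17 for ATRX and −2.20 ± 1.18 for KHDC4, the gene without a call. The median was −3.08 over the 5 genes and −2.56 over all genes tested. The spread behind the SEs comes from the GTPBP8 replicates alone, since AUH has 1 library.

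With nuclear site reads as library size, no gene was called lower and 6 were called higher (28.6%). All 6 were mitochondrial transcripts, whose reads are not part of that library size. Neither the 5 genes nor any other nuclear gene was called. ATRX then had a log2 difference of 1.03, SMAD2 of 0.50, KHDC4 of 1.48, MATR3 of −0.87 and MAZ of −0.57. The direction of ATRX, SMAD2 and KHDC4 therefore turned with the denominator, and the median over all genes moved from −2.56 to 1.03. In these 3 genes the AUH value is 5 reads here too. A site in the AUH list was the condition for entry with either denominator, so these values are a description.

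**Figure D3:**
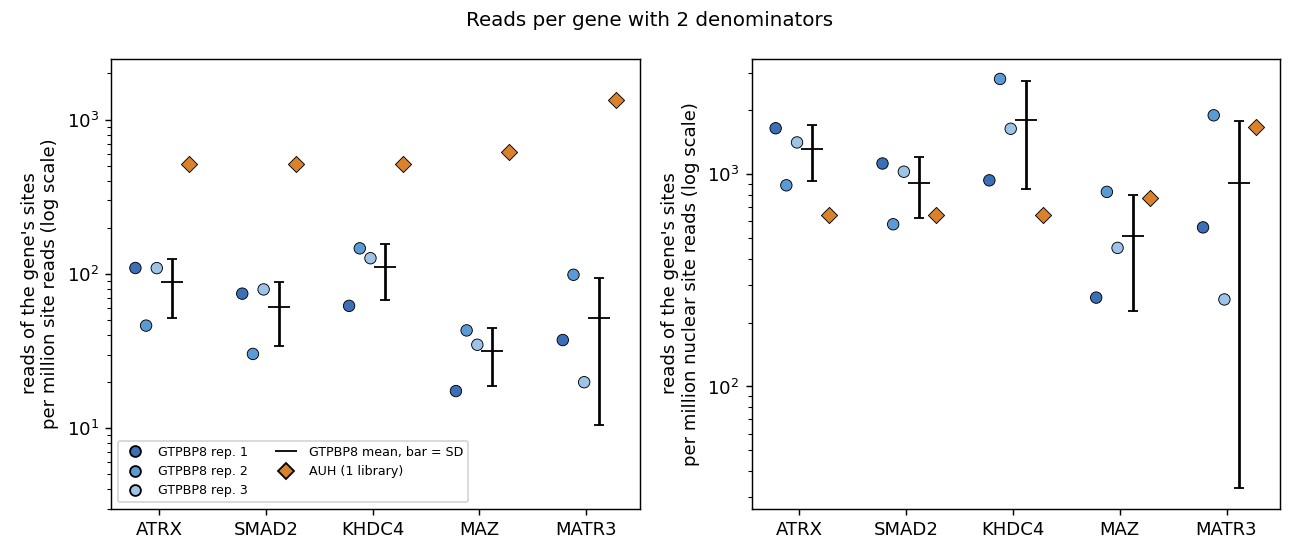
Reads at the sites of each gene per 1000000 site reads (left) and per 1000000 nuclear site reads (right), both on log axes, for GTPBP8 replicates 1 to 3 (blue circles, with mean and SD) and the AUH library (orange diamonds). On the left every AUH value lies above all GTPBP8 replicates, and on the right AUH is below all replicates in ATRX and KHDC4 and within their range in SMAD2, MAZ and MATR3.

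Summed over the 5 genes, the share of nuclear site reads was 0.454%, 0.701% and 0.479% for GTPBP8 and 0.436% for AUH. All 3 GTPBP8 replicates were above AUH on this scale, by a fold of the mean of 1.25 (exact permutation test over the 4 libraries, two-sided, p = 0.5). The AUH sum has a floor here too, since each gene was chosen for an AUH site, so this is a description. Of all site reads, the sum was 301, 365 and 370 CPM against 3511 CPM, a fold of 0.0983. At these GTPBP8 values the choice of genes fixed the direction of that fold, as it did for the single genes.

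The converted share over the 5 genes was 89.3% (95% Wilson interval 82.5 to 93.6), 59.4% (52.9 to 65.5) and 73.2% (65.5 to 79.6) in GTPBP8 replicates 1, 2 and 3. It was 73.5% (56.9 to 85.4) for AUH, between the replicates, and the intervals cover counting error only. The difference of 0.40 percentage points was far smaller than the spread of the replicates (exact permutation test, two-sided, p = 1). The interval of replicate 1 lies wholly above those of the other two. The replicates differed in which gene gave the reads and also in the share within genes. At MAZ and MATR3 summed it was 100%, 58.4% and 59.1%, and at ATRX and SMAD2 summed 100%, 100% and 93.4%. What made the replicates differ was not tested. Over all nuclear sites they were alike, at 65.9%, 65.6% and 63.5%, with 75.1% for AUH. The AUH list has no site with less than 33.3% of its reads converted, while the lowest in the GTPBP8 lists have 7.84%, 9.76% and 7.69%, so that the proteins' shares are not measured over the same range.

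The sites of the 5 genes had a mean U content of 33.7%, 32.2% and 31.5% for GTPBP8 and 29.4% for AUH. All replicates were above AUH, by 3.11 percentage points on average (two-sided exact permutation p = 0.25, the lowest that 3 libraries against 1 can give). Over all nuclear sites the means were 30.5%, 30%, 30.3% and 28.9%. The sites of the 5 genes differed far more within a list, from 19% to 47.6% in replicate 1 and from 13% to 50% for AUH.

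**Figure D4:**
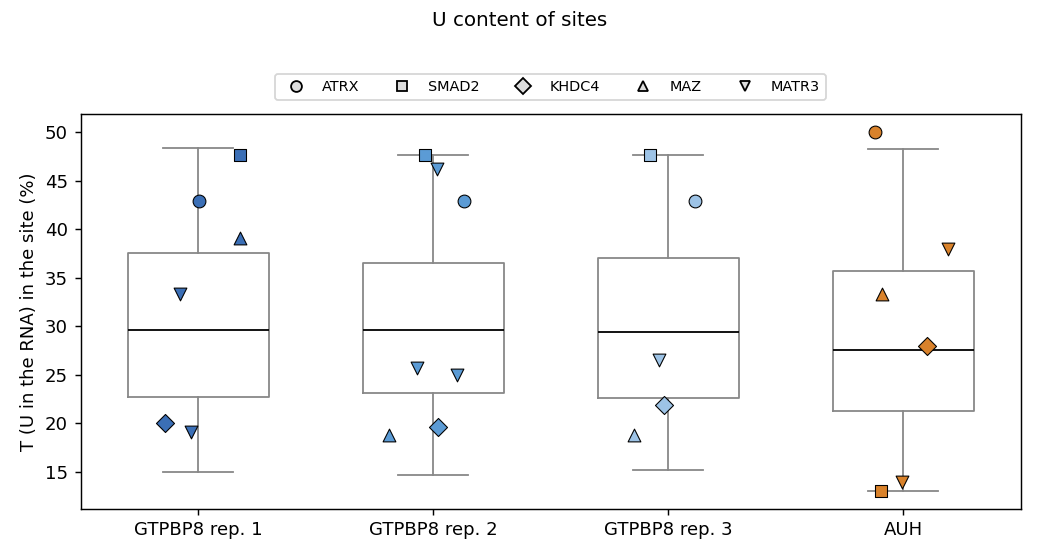
U content (T in the listed sequence, y axis, %) of each site of the 5 genes (symbols by gene) in the 4 libraries, over a box of all nuclear sites with median, quartiles and whiskers at the 5th and 95th percentile. In the GTPBP8 libraries SMAD2 and ATRX lie above the upper quartile, at 47.6% and 42.9%, and KHDC4 lies below the lower quartile, and for AUH ATRX is at 50% and SMAD2 at 13%.

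Of the wider groups to which these proteins belong, 70 genes were looked up, and 8, 15 and 5 of them had a site in the GTPBP8 replicates and 9 for AUH. Of all 20056 protein-coding genes of RefSeq, 0.883%, 1.9%, 0.868% and 1.56% had one in these libraries under their current symbol. Genes listed under an older symbol, such as KIAA0907, are missed, so these shares are too low. The listed genes were not matched to the others on expression, which the site lists do not give. Of 15 genes of ATRX partners and heterochromatin, 1, 4 and 1 had a site in GTPBP8 replicates 1, 2 and 3 and 3 had one for AUH, and CBX5 and TRIM28 had sites for both proteins. Of 16 nuclear RNA-binding proteins like MATR3, 3, 5 and 2 had a site for GTPBP8 and 3 for AUH, among them HNRNPU and HNRNPA2B1 for both. Of 15 splicing genes set beside KHDC4, 3, 3 and 2 had a site for GTPBP8 and 3 for AUH, with SF1 for both. Of 10 promoter factors set beside MAZ, 1, 3 and 0 had a site for GTPBP8 and 0 for AUH. None of the 14 TGF-beta signalling genes set beside SMAD2 had a site in any library.

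In 0 of the 5 listed genes with sites for both proteins did these overlap, as the low share of overlaps among all nuclear sites would give. SF1, a branch point binding protein, came closest: its 3′ UTR had GTPBP8 sites of 6 reads in replicate 1 and 9 reads in replicate 3 and an AUH site of 5 reads. TRIM28, a corepressor at heterochromatin, had a coding site in replicate 2 with 10 reads and a coding AUH site with 5 reads. CBX5, a heterochromatin protein, had 3′ UTR sites in replicates 1 and 2 and a coding AUH site of 5 reads.

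The nuclear genes whose CPM over the 4 libraries lay nearest to the median profile of the 5 genes, by Euclidean distance on the log2 scale, were ENO1, TUBA1B and TMBIM6. ENO1, a glycolytic enzyme, had 79.5, 55.8 and 71.9 CPM for GTPBP8 and 723 for AUH, at a distance of 0.68. TUBA1B, an alpha-tubulin, had 42.2, 63.7 and 96.7 CPM against 929, at 1.15. TMBIM6 had 102, 81.3 and 22.3 CPM against 620, at 2.14. The 5 genes themselves were at 0.66 (SMAD2), 0.94 (ATRX), 1.80 (KHDC4), 2.21 (MAZ) and 2.77 (MATR3), so that ENO1 was about as near as the closest of them.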

How the data were processed

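The samples are fPAR-CLIP libraries of GTPBP8::FLAG (3 biological replicates) and of AUH::V5 (1 library), both from HEK293 T-REx cells. The authors made the GTPBP8 lists with Bcl2fastq, Cutadapt, PARpipe and PARalyzer on hg38, calling sites per library, and deposited unnormalized counts of reads, distinct reads and conversions, fractions of reads converted or ending in G, and scores, which were not used here. For the AUH list the caller is not given in the sources. There the authors deposited converted reads in expected counts, averaged where sites were merged, and the fraction of reads converted. AUH reads were converted reads divided by the fraction, rounded, since the deposited count of total reads appears multiplied at annotated sites. AUH starts were raised by 1 to 1-based positions, and its lower-case bases were read as bases. Depth is the total of site reads (9684 to 627603); AUH shares of the 5 genes rest on 34 reads.

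Sites were assigned by the gene names in the lists. Small RNA and gene intervals are RefSeq's (GRCh38.p14), matched by symbol for each of the 5 genes. Overlap meant at least 1 nt on the same strand. Reads per gene were tested with edgeR 4.0.16 (quasi-likelihood, R 4.3.3, threshold 0.05 after Benjamini-Hochberg adjustment over 21 genes), library values by exact permutation, and single shares have 95% Wilson intervals. Edits were counted with edlib 1.3.9. The scripts ran in Python 3.11.15 with pandas 2.3.3, numpy 2.4.6, matplotlib 3.10.9 and scipy 1.17.1, and DESeq2 was version 1.42.0. Methods were tested on simulated data.

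The members, the lists of related genes and the tests were chosen with earlier results of these data known. Genes named are the members, the 3 nearest in profile, the tagged proteins' own genes, and listed genes with sites for both proteins. Named too are the RefSeq genes that hold the SNORA74D site or the MAZ sites. Alternatives were TMM factors, DESeq2, nuclear reads as denominator, a minimum of 10 reads, distinct reads, the deposited AUH totals, other overlap rules, unweighted or weighted means and each GTPBP8 replicate left out. The sequence and values of 1 AUH site are not reported here, and its reads are part of the sums.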

Additional observations from a re-analysis of the deposited data

How the results depend on the processing

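The count of genes called lower for GTPBP8 by edgeR was 13 of 21 and depended most on the library size. It was 2 with TMM factors, 0 with nuclear site reads (1 at an unadjusted p under 0.05, while DESeq2 with the total of site reads called 13), 3 of the 10 genes with at least 10 reads in every library, none of them among the 5 genes, and 0 over nuclear genes alone (2 unadjusted), a setting chosen after seeing the data. With each GTPBP8 replicate left out it was 8 to 11. Among the 5 genes the log2 difference turned above 0 with nuclear reads in ATRX (1.03), SMAD2 (0.50) and KHDC4 (1.48) and over nuclear genes alone (1.03, 0.50 and 1.48), and in KHDC4 with TMM factors (0.34). MATR3 lost its call without replicate 1 (adjusted p = 0.0562, edgeR), MAZ without replicate 2 (0.0579), SMAD2 without replicate 1 (0.103) and ATRX without replicate 1 (0.124) or 3 (0.0653), and KHDC4 was called with DESeq2 (0.0319). With distinct read sequences, which only the GTPBP8 lists give, AUH stayed in reads. The log2 difference was then nearer to 0 in each of the 5 genes. It was −1.26 in ATRX, −1.46 in KHDC4, −2.03 in SMAD2, −3.39 in MAZ and −3.79 in MATR3, with a median of −1.46 over all 21 genes. With the deposited AUH totals it was nearer to 0 in ATRX (−1.86). It was further from 0 in KHDC4 (−2.50), SMAD2 (−3.97), MATR3 (−5.34) and MAZ (−5.88), with a median of −2.96 over all 21 genes. The fold of summed reads was 0.0983, 0.0948 to 0.105 with a replicate left out, 0.0575 with the deposited AUH totals, 0.291 with reads per nucleotide of site and 1.25 with nuclear reads. The difference in converted share was 0.40 percentage points, −0.55 over unweighted sites, −7.26 to 7.68 with a replicate left out, lowest without replicate 1, and −8.99 without the ATRX and SMAD2 sites, chosen after seeing the data. The U content difference was 3.11, 4.56 weighted by reads and 2.51 to 3.59 with a replicate left out. Genes with a site at the same place in the replicates numbered 3 to 5 with a replicate left out. No AUH site of the 5 genes has 10 reads, so sums, converted shares and U contents could not be computed at that minimum. No paired analysis was possible because AUH has 1 library and no replicate shared with GTPBP8. Depth limits every AUH value, since sites of 4 or 5 reads stand at the bottom of its list.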

Other observations

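The genes of the tagged proteins had sites too. GTPBP8 had a coding site in GTPBP8 replicate 2, at chr3:112991307-112991333, with 13 reads, 9 of them converted, and none in the other replicates or for AUH. AUH had sites in the AUH library alone, at chr9:91298016-91298045 with 7 reads, all converted, and at chr9:91361828-91361860 with 5 reads, 4 of them converted, both annotated to exons. Whether these reads came from the transgene or the endogenous gene was not tested.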
